A study of Mus musculus with 6 samples.

Results

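This account follows 10 genes of CD8+ and cytotoxic lymphocytes through RNA-seq libraries of CD4+ T cells. They were taken by symbol from the deposited table of normalized counts and from the tables of splicing events. They are Cd8a, Cd8b1, Gzmb, Gzmk, Prf1, Nkg7, Ccl5, Klrd1, Klrk1 and Crtam, and all 10 were found among 25351 genes with a symbol (56246 genes in all). The values of the libraries were not used to pick them, although earlier results of the same data were known.

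The cells came from spleen and peripheral lymph nodes, and the study's methods describe a sort that kept cells with CD4 and without CD8. The 3 cKO libraries, KO_7.8 then KO_9.10 then KO_11.12 wherever values are listed, had the genotype U5-52K f/f CD4-Cre tg, in which both alleles of the splicing factor gene U5-52K (Cd2bp2) are floxed. The first pair of the 3 Control libraries, listed as CTRL_1.2 before CTRL_3.4, had the genotype U5-52K wt/f with CD4-Cre tg. The last one, CTRL_5.6, was U5-52K f/f without the Cre transgene, so that Cre and the floxed allele were not the same across Control. All mice were male and 8 to 12 weeks old according to the methods. CD4-Cre is active from the stage of thymocytes that carry both CD4 and CD8, so that CD8+ T cells of a cKO mouse derive from deleted cells as well. NK cells do not pass through that stage.

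CD8 is the coreceptor that binds MHC class I and brings the kinase Lck to the T cell receptor. It is made as an alpha-beta heterodimer on conventional CD8+ T cells or as an alpha homodimer on other cells, and the beta chain needs the alpha chain to reach the surface. Cytotoxic T cells and NK cells store perforin and granzymes in granules: perforin opens the target membrane and granzymes enter and cleave proteins of the target. Nkg7 lies in the granule membrane, Ccl5 is a chemokine kept in secretory vesicles of memory and effector lymphocytes, and Klrd1 (CD94) and Klrk1 (NKG2D) are lectin-like receptors that read MHC class I and its stress-induced relatives. Some CD4+ T cells, memory and cytotoxic ones among them, express several of these genes.

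In cKO, 4 of the 10 genes were about 2-fold higher: Gzmb, Nkg7, Ccl5 and Klrk1. Each was higher in all 3 cKO libraries than in any Control library, as were 12.6% of all genes tested. Crtam was lower in all 3 cKO libraries, as were 11.5% of all genes tested. Prf1 was at the same level in both groups within 0.36 on the log2 scale, and Gzmk, Klrd1, Cd8a and Cd8b1 overlapped between groups. None of the 9 genes that could be tested passed an adjusted p of 0.05 with limma, so the differences below are given as values and not as calls.

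Between 56995121 and 75606222 reads fell into genes in Control, and between 69981159 and 82286366 in cKO. Cd2bp2 stood at 2610 ± 10.6 normalized counts in Control and 832 ± 81.4 in cKO (SD, n = 3 each, as in all values below), or 31.8% of Control. The sorted cell type fitted its markers: Cd4 ranged from 54430.8 to 62831.1 normalized counts, Cd40lg from 4791.5 to 8264.9 and Zbtb7b, the factor that fixes the CD4 fate, from 4078.5 to 8932.8. KO_7.8 stood apart, since the summed level of 12 myeloid genes was 36320 there against 10110 to 14630 in the other 5 libraries. Results are therefore also given without it where it bears on them. In bulk samples, fewer cells of a type and less RNA per cell cannot be told apart.

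The stretches before the start sites of Gzmb, Klrk1 and Nkg7 are printed because these genes were higher together in cKO, and that of Prf1 because this gene, also of cytotoxic granules, was not. They are RefSeq sequences of the build GRCm38.p6, on the strand of the gene, and Ccl5, Cd8b1, Klrd1 and Crtam had no entry in the table. Each window takes the 250 bases before the RefSeq start, less the bases that GENCODE M21 already counts as part of the gene (65 for Nkg7, 3 for Prf1). Capitals mark matches to 4 motifs searched on both strands: TGTGGT (RUNX), GGTGTG (T-box), TGANTCA (AP-1) and TTCNNNGAA (STAT).
Gzmb, chr14:56262335-56262584, minus strand: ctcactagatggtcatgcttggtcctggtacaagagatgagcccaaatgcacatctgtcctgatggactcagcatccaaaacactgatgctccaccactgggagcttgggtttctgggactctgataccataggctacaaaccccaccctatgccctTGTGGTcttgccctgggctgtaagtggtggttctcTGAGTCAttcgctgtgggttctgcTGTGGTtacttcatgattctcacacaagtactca
Klrk1, chr6:129623865-129624114, minus strand: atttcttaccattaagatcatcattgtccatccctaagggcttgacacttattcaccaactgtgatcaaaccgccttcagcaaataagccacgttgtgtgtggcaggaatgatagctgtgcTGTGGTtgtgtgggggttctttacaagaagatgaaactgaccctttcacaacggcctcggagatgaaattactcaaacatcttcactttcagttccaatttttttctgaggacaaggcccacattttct
Nkg7, chr7:43436888-43437072, plus strand: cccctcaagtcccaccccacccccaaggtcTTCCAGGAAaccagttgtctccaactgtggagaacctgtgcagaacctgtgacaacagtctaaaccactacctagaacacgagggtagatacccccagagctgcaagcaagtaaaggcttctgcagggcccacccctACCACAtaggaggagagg
Prf1, chr10:61297586-61297832, plus strand: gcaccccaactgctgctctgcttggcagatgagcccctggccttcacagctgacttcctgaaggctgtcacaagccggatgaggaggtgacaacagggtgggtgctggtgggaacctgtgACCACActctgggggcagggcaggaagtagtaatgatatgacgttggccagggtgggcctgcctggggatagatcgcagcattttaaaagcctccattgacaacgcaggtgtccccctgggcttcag

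Such short words are common: the RUNX letters were in 14% of 32851 promoter windows of 250 bases, the T-box letters in 16.3%, the AP-1 letters in 6.75% and the STAT letters in 7.02%. Of the 6 genes with an entry (the 4 printed, Cd8a and Gzmk), Gzmb held the RUNX letters at 2 places and Klrk1, Nkg7 and Prf1 at 1 place each. The RUNX letters were thus in the windows of 3 genes that were higher in cKO and of Prf1, which was not. Whether these letters bear on the levels was not tested. The T-box letters were in the windows of Gzmk and Nkg7 (in Nkg7 within the 65 bases not printed), the AP-1 letters in that of Gzmb and the STAT letters in that of Nkg7. The Gzmk window (chr13:113180966-113181215) lay wholly within the gene as GENCODE M21 gives it (113171608 to 113225908, minus strand). The Cd8a window held none of the 4 motifs. A match of letters is a description of the sequence, and no factor binding was measured here.

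The coreceptor genes lie side by side on chromosome 6 (Cd8b1 at 71322788 to 71337494 and Cd8a at 71373427 to 71379173, both on the plus strand of GRCm38) and gave very different levels. Cd8a, the alpha chain, had 9.7, 68.5 and 107.0 normalized counts in Control and 29.4, 17.7 and 32.0 in cKO. The highest and the lowest library were both Control libraries, and all 3 cKO values lay between them. These values rest on 9 to 85 reads per library. With 61.74 ± 49 in Control and 26.36 ± 7.63 in cKO, Cd8a was below the minimum mean of 100 for testing, and in the fit without a minimum its log2 fold change was −0.70 (SE 0.83, 95% interval −2.61 to 1.21, limma adjusted p = 0.769).

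Cd8b1, the beta chain, was an order of magnitude above Cd8a. It had 700.3, 927.5 and 1463.9 normalized counts in the 3 Control libraries and 886.1, 596.0 and 621.4 in the cKO libraries. CTRL_5.6, the library without Cre, was the highest, KO_9.10 and KO_11.12 were the lowest, and the groups overlapped through KO_7.8. The log2 fold change was −0.51 (SE 0.29, 95% interval −1.20 to 0.18, limma adjusted p = 0.437). It was −0.22 without CTRL_5.6 and −0.69 without KO_7.8.

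Per kilobase of annotated exon, Cd8b1 stood at 695 ± 264 normalized counts in Control and 473 ± 108 in cKO, and Cd8a at 17 ± 13.5 and 7.25 ± 2.1. In whole reads, not corrected for length, the alpha chain made up 5.02% ± 3.16 of both coreceptor genes in Control and 3.66% ± 1.08 in cKO. The share was 1.37% in CTRL_1.2 and 6.88% and 6.81% in the other Control libraries, and 3.21%, 2.88% and 4.89% in cKO. Cd8a has 3637 bases of exon and Cd8b1 has 1483, so a share by length would be smaller. The difference of −1.36 points did not exceed the spread between libraries (two-sided exact permutation test, p = 0.4, with 0.1 the smallest p that 3 against 3 can give). Each 1000 reads of Cd4 came with 0.169, 1.19 and 1.7 reads of Cd8a in Control and 0.516, 0.325 and 0.534 in cKO (mean log2 ratio lower by 0.645 in cKO, two-sided exact permutation test, p = 0.5). The sort used an antibody against CD8 of clone 53-6.7, which reads the alpha chain. Cd8a was low and Cd8b1 RNA was present in every library. Whether the sort bears on these levels was not tested.

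**Figure D1:**
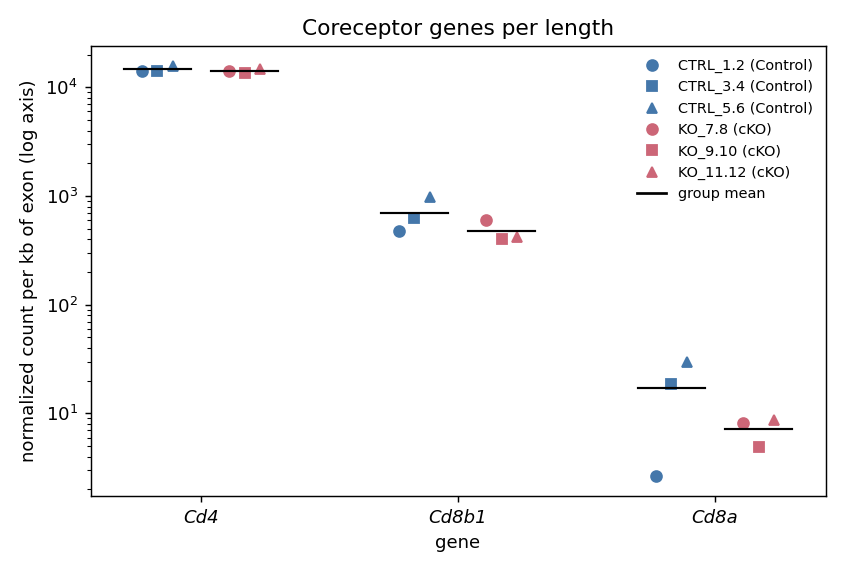
Normalized count per kilobase of annotated exon (log axis) of Cd4, Cd8b1 and Cd8a in each of the 3 Control (blue) and 3 cKO (red) libraries, with black lines for group means. Cd4 sits together in all 6 libraries, Cd8b1 lies well below it and Cd8a lowest, from 2.67 to 29.42, with the widest spread among Control libraries.

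Of the granule proteins, Gzmb (granzyme B, which cleaves caspases and Bid in the target cell) differed most. Its normalized counts were 358.8, 632.8 and 430.5 in Control and 1505.3, 1123.0 and 930.0 in cKO. The lowest cKO library, KO_11.12, lay above the highest Control library, CTRL_3.4, and KO_7.8 was the highest of all. The mean was 2.5 times that of Control (log2 fold change 1.33, SE 0.26, 95% interval 0.71 to 1.95, limma adjusted p = 0.0807). Without KO_7.8 the log2 fold change was 1.15.

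Nkg7, the membrane protein of cytotoxic granules that takes part in their release, had 8690.5, 12454.3 and 7081.6 normalized counts in Control and 17344.3, 20874.9 and 19038.4 in cKO. All 3 cKO libraries lay close together, above CTRL_3.4, the highest Control library. The ratio of means was 2.03 (log2 fold change 1.06, SE 0.20, 95% interval 0.58 to 1.54, limma adjusted p = 0.0749). Without CTRL_3.4 the log2 fold change was 1.28 and Nkg7 passed the threshold (limma adjusted p = 0.0438), and without KO_7.8 it was 1.12.

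Prf1 (perforin, the pore protein) was level. Its normalized counts of 4038.2, 4325.1 and 5397.5 in Control enclosed the cKO values of 4425.4, 4058.3 and 4640.5. The log2 fold change was −0.06 with a 95% interval from −0.36 to 0.25, which does not reach a difference of 1 in either direction (limma adjusted p = 0.874). As a result, 1000 reads of Prf1 came with 88.8, 146 and 79.8 reads of Gzmb in Control and with 340, 277 and 200 in cKO, a ratio that was taken after its values were seen (two-sided exact permutation test of the log2 ratio, p = 0.1, the smallest that 3 against 3 can give).

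Gzmk (granzyme K, a tryptase of memory cells) had 411.6, 233.8 and 187.6 normalized counts in Control and 440.4, 296.3 and 288.7 in cKO. CTRL_1.2 lay among the cKO libraries. The log2 fold change was 0.35 (SE 0.33, 95% interval −0.43 to 1.14, limma adjusted p = 0.658), and it ranged from 0.11 to 0.68 when single libraries were left out. Gzmk overlaps the gene Esm1 on the other strand without a shared exon, and Esm1 reached at most 54.7 normalized counts.

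Ccl5, the chemokine that draws T cells and monocytes, was with Nkg7 the most abundant of the 10 genes. It had 9779.7, 13066.4 and 6778.3 normalized counts in Control and 20356.0, 24502.3 and 17739.3 in cKO. As with Nkg7, CTRL_3.4 was the highest and CTRL_5.6 the lowest Control library, and KO_9.10 the highest cKO library. The ratio of means was 2.11 (log2 fold change 1.12, SE 0.24, 95% interval 0.54 to 1.69, limma adjusted p = 0.101), and the log2 fold change without KO_7.8 was 1.13.

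Among the receptors, Klrk1 (NKG2D, an activating receptor for stress-induced ligands) had 1677.5, 1335.9 and 1129.1 normalized counts in Control and 2729.9, 3301.5 and 2376.9 in cKO. The groups did not overlap, and the order within Control differed from that of Nkg7 and Ccl5. The ratio of means was 2.03 (log2 fold change 1.03, SE 0.18, 95% interval 0.59 to 1.46, limma adjusted p = 0.0637). Klrk1 was the member of smallest p, in place 148 of 11001 genes.

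Klrd1 (CD94), which lies next to Klrk1 on chromosome 6 and pairs with the NKG2 proteins encoded by Klrc1 and Klrc2, did not follow it. Its normalized counts were 505.3, 399.0 and 772.9 in Control and 915.6, 457.1 and 387.2 in cKO. The highest and the lowest library were both cKO libraries. The log2 fold change was 0.02 (SE 0.38, 95% interval −0.87 to 0.91, limma adjusted p = 0.988), and it was −0.35 without KO_7.8, so that no direction can be given. The wide interval does not show that Klrd1 was equal in the groups.

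Crtam, a receptor of activated cytotoxic cells and of CD4+ T cells on the way to a cytotoxic state, went the other way. Its normalized counts were 546.3, 540.8 and 626.9 in Control and 475.1, 362.8 and 350.9 in cKO. All cKO libraries lay below all Control libraries, with a log2 fold change of −0.54 (SE 0.17, 95% interval −0.94 to −0.13, limma adjusted p = 0.198). It was the only one of the 10 genes with that order.

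**Figure D2:**
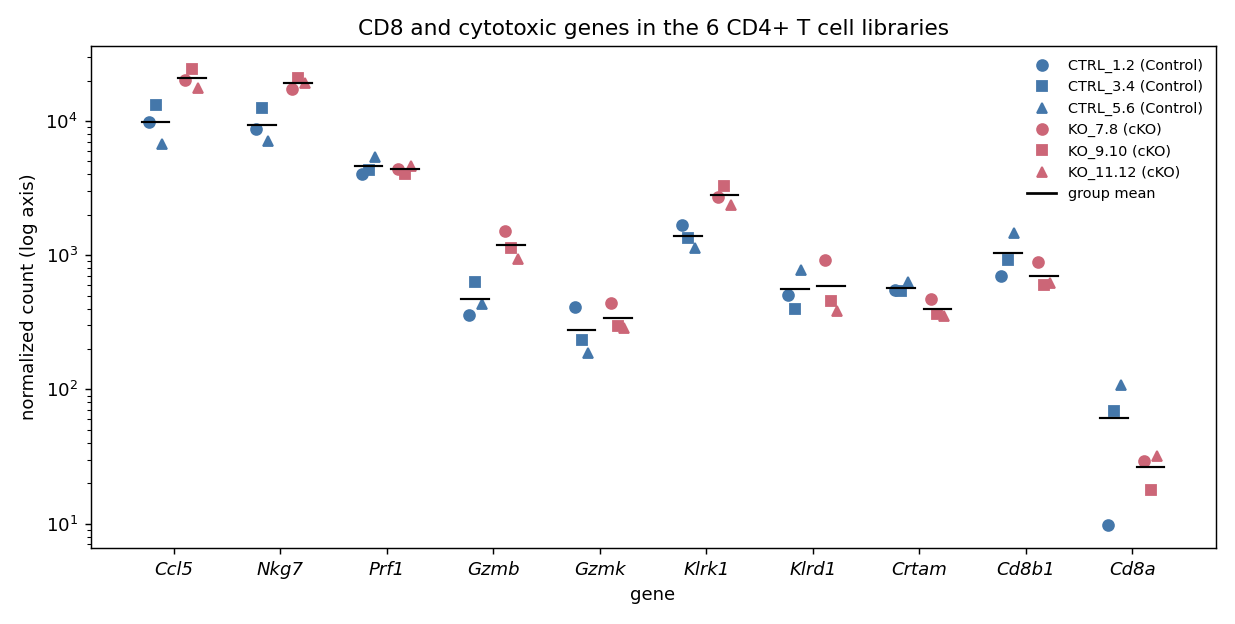
Normalized count (log axis) of each of the 10 genes in the 3 Control (blue) and 3 cKO (red) libraries, one marker per library and a black line per group mean. The red markers lie above the blue ones for Ccl5, Nkg7, Gzmb and Klrk1, below them for Crtam, and among them for the other genes.

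Counted over the 9 tested genes, 0 were called higher at an adjusted p under 0.05 and a log2 fold change above 1 with limma, where 0.445% of all 11001 genes tested were called higher, and 0 were called lower, where 0.118% of all genes were. At an unadjusted p under 0.05, 5 of the 9 passed (Gzmb, Nkg7, Ccl5, Klrk1 and Crtam), beside 16.7% of all genes, and 4 of these were higher, beside 9.25% of all genes. The groups did not overlap for 4 higher genes and 1 lower gene, beside 12.6% and 11.5% of all genes. The median log2 fold change was 0.353 for the 9 genes and 0.010 for all genes.

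The call depended on the tool. edgeR's quasi-likelihood test on the recovered whole reads also called 0 of the 9 higher (0.427% of all genes) and 0 at an adjusted p under 0.05 alone (0.664% higher and 0.355% lower), with adjusted p-values of 0.0793 to 0.113 for the 4 higher genes. DESeq2 on the same reads called all 4 higher (1.63% of 10995 genes), with log2 fold changes of 1.31 for Gzmb, 1.01 for Nkg7, 1.07 for Ccl5 and 1.01 for Klrk1 and adjusted p-values from 0.000165 to 0.000917. At an adjusted p under 0.05 alone it passed the same 4 as higher (4.44% of all genes) and 0 as lower (3.98%), with Crtam at an adjusted p of 0.0695. The sizes thus hardly differed between tools.

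**Figure D3:**
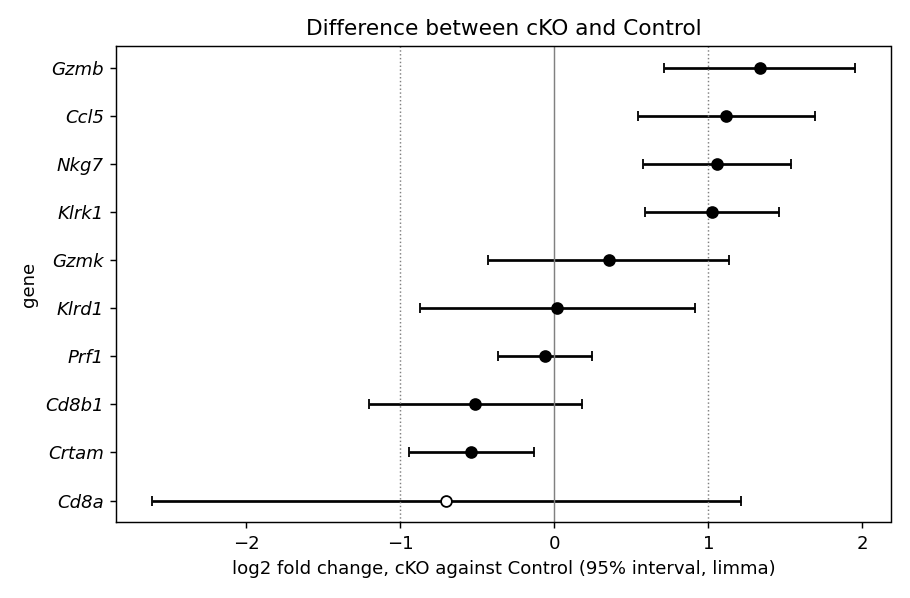
log2 fold change of cKO against Control with its 95% interval from limma for 9 genes (filled) and, from the fit without a minimum count, for Cd8a (open), with dotted lines at a log2 fold change of −1 and 1. The intervals of Gzmb, Ccl5, Nkg7 and Klrk1 lie above 0, that of Crtam below 0, and those of the other genes include 0.

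Compared per kilobase of exon, the order of the genes from the top was Ccl5 and Nkg7 (10300 ± 3280 and 10300 ± 3020 in Control), then Prf1 (1780 ± 277), Cd8b1 (695 ± 264), Klrd1 (436 ± 150), Gzmb (330 ± 98.9), Gzmk (200 ± 85.2), Klrk1 (192 ± 38.6), Crtam (111 ± 9.39) and Cd8a. Ccl5 and Nkg7 were not separated by their spread, nor were the neighbours between Cd8b1 and Klrk1. Prf1 lay apart from both of its neighbours. In cKO, the mean of Gzmb (826 ± 204) stood above those of Cd8b1 and Klrd1 (458 ± 224), and all libraries of Klrk1 (390 ± 65) above those of Gzmk (246 ± 61.6).

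Across the 6 libraries, Nkg7 and Ccl5 ran together (Pearson r = 0.98 of log2 values), as did Ccl5 and Klrk1 (r = 0.92), while Nkg7 and Crtam ran opposite (r = −0.91). Cd8a and Cd8b1 had r = 0.80. These 6 points share the difference between the groups and are given as a description. Among the other genes whose log2 values came closest to the mean standardized profile of the 9 tested genes were Mthfsl (r = 0.994), Fam118b, Vma21 and Kcnip3 (r = 0.991 each), over 6 libraries. That profile was highest in KO_7.8 (0.702), so that this library weighs on the choice.

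The receptor partners of Klrd1 and Klrk1 were examined from a list of 17 genes of NK receptor complexes. Of its 10 tested genes, 0 passed an adjusted p of 0.05 in either direction (0.673% of all genes passed higher and 0.3% lower), 9 had a positive log2 fold change and the median was 1.110, beside 0.010 for all genes. Klrc1, which encodes the inhibitory partner NKG2A of CD94, had 1226.1, 940.7 and 873.6 normalized counts in Control and 2067.7, 2720.7 and 1779.6 in cKO (log2 fold change 1.10, SE 0.20, limma adjusted p = 0.0642). Klrc2, which encodes the activating partner NKG2C, was also higher in all 3 cKO libraries, with 227.5 ± 34 in Control and 442.1 ± 62.4 in cKO (0.96, SE 0.20, adjusted p = 0.0882). Klrc1 and Klrc2 are close relatives, and reads that fit both are uncertain. The partners of Klrd1 were thus higher in every cKO library while Klrd1 itself was not, and each read of Klrd1 came with 2.43, 2.36 and 1.13 reads of Klrc1 in Control and 2.26, 5.95 and 4.6 in cKO, so that this ratio overlapped between the groups through KO_7.8.

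Hcst (DAP10), the adaptor that carries the signal of Klrk1, did not go with its receptor. It had 5466.8, 5256.4 and 7622.9 normalized counts in Control and 5352.6, 4662.7 and 5240.4 in cKO (log2 fold change −0.25, limma adjusted p = 0.483). Tyrobp (DAP12), the adaptor of several activating NK and myeloid receptors, had 5292.7 in KO_7.8 against 536.1 to 1380.8 in the other libraries. Among the ligands of Klrk1, Ulbp1 was higher in all 3 cKO libraries (375.9 ± 70.4 in Control, 665 ± 128 in cKO, adjusted p = 0.139) and H60b was not separated (299.2 ± 135 and 261.5 ± 132).

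Ncr1 (NKp46), a defining marker of NK cells, had 114.2, 86.4 and 94.4 normalized counts in Control and 251.2, 344.3 and 220.4 in cKO (log2 fold change 1.44, SE 0.25, limma adjusted p = 0.0608). Klre1, another marker fixed for NK cells, had 54.64 ± 8.77 in Control and 123.2 ± 40.2 in cKO. Both were higher in all 3 cKO libraries, like Gzmb, Nkg7, Ccl5 and Klrk1, and so were 6 of the 10 tested genes of the list, beside 12.6% of all genes: Ncr1, Klre1, Klrc1, Klrc2, Klri2 and Fcgr3. Of the other markers fixed for NK cells, Klrb1c (NK1.1) overlapped between the groups (2220 ± 434 and 2853 ± 522), and Klra8 (Ly49H) was nearly absent, with 3.4 to 12.6 in all 6 libraries. The summed level of the 17 genes ranged from 10300 to 14110 in Control and from 13600 to 23990 in cKO, where the highest library without KO_7.8 was at 15010. In KO_7.8, Fcer1g (5942.3) and Tyrobp (5292.7), which myeloid cells also express, made up much of the sum. None of the 17 genes was at 0 in all libraries, and the part of NK cells in the values of the 10 genes was not tested. Klri2 had 182.1, 184.9 and 334.8 normalized counts in Control and 1346.6, 577.5 and 456.4 in cKO (log2 fold change 1.65, SE 0.44, limma adjusted p = 0.146).

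In a list of 30 further effector genes of cytotoxic lymphocytes, 1 of 29 tested genes rose and 0 fell, beside 0.673% and 0.3% of all genes at an adjusted p under 0.05. A positive log2 fold change was seen in 26, and the median was 0.431, beside 0.010 for all genes. The gene that rose was Id2, a regulator of NK and effector T cells, with 20552.9, 18091.8 and 19894.3 normalized counts in Control and 32407.6, 27974.7 and 32642.8 in cKO (log2 fold change 0.67, SE 0.10, limma adjusted p = 0.0378). Next by p came Zeb2, a factor of terminal effector cells (1.13, SE 0.24, adjusted p = 0.1), Ccl4, a chemokine of activated lymphocytes (1.68, SE 0.38, adjusted p = 0.109), and Klrg1, an inhibitory receptor of effector cells (1.40, SE 0.35, adjusted p = 0.131), all without overlap of the groups. Of the 29 genes, 13 were higher in all 3 cKO libraries and 1 was lower, beside 12.6% and 11.5% of all genes. The lower one was Cst7, with 2258 ± 522 in Control and 1394 ± 316 in cKO (log2 fold change −0.69, SE 0.24, limma adjusted p = 0.225). Eomes (−0.32) and Fasl (−0.16) were also negative, and their groups overlapped.

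Transcription factors of the CD4 and CD8 lineages were set beside these genes. Runx3, which acts in CD8+ and cytotoxic cells, had 3407 ± 372 normalized counts in Control and 4114 ± 120 in cKO (log2 fold change 0.28, SE 0.10, adjusted p = 0.254). In the list of 12 regulators of the choice between CD4 and CD8, 0 of 12 passed in either direction and the median log2 fold change was −0.067. Cd4 (−0.05, SE 0.09) and Zbtb7b (−0.08, SE 0.31) were within their spread, and Myb (−0.72, adjusted p = 0.128) and Satb1 (−0.42, adjusted p = 0.158) had the smallest p in that list, followed by Runx3 and Gata3 (0.35, adjusted p = 0.296).

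**Figure D4:**
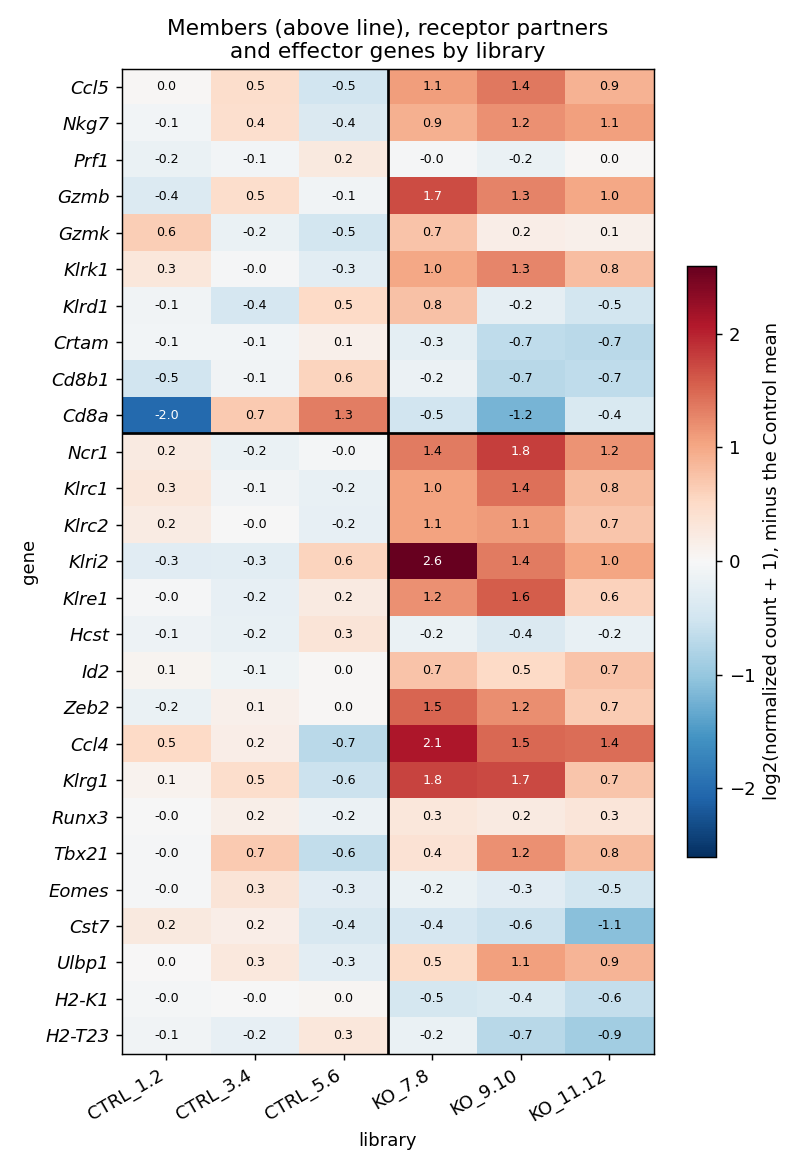
log2(normalized count + 1) minus the mean of the Control libraries for the 10 genes (above the horizontal line) and for receptor partners and effector genes (below it), one column per library with the Control libraries left of the vertical line. Nkg7, Ccl5, Gzmb, Klrk1, Klrc1, Klrc2, Ncr1 and Id2 are red in all 3 cKO columns, while Prf1 stays near 0.

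A list of 28 partners of the 10 genes (ligands, receptors, adaptors, release factors and substrates) had 25 tested genes, of which 0 passed in either direction, with 16 positive and 9 negative log2 fold changes and a median of 0.252. H2-K1, a class I molecule bound by CD8, was lower in all 3 cKO libraries (153200 ± 5040 in Control, 108700 ± 8500 in cKO, log2 fold change −0.50, SE 0.10, limma adjusted p = 0.0803). H2-T23 (Qa-1), the ligand of the receptor that Klrd1 forms with the product of Klrc1, had 7357.7, 6755.7 and 9509.7 in Control and 6930.4, 4733.4 and 4138.4 in cKO (log2 fold change −0.60, SE 0.22, adjusted p = 0.241). Serpinb9, the inhibitor that protects cells from their own granzyme B, had 1189 ± 61.7 in Control and 1462 ± 209 in cKO and did not overlap (log2 fold change 0.29, adjusted p = 0.339). Cadm1, the ligand of Crtam, was at 226.0 in KO_7.8 and between 32.3 and 75.5 elsewhere.

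Genes listed for cells other than CD4+ T cells had reads in all libraries. The 12 myeloid genes, of which 8 were tested and 8 had a positive log2 fold change, summed to 10110 to 12340 in Control and to 14090 to 36320 in cKO, with the highest value in KO_7.8 and none of the genes at 0 throughout. Ccr2 (4099 ± 971) and Cybb (3343 ± 107) were the largest parts of the Control sum. In KO_9.10 and KO_11.12, Ccr2 was at 6857.3 and 6125.4, while Cybb, at 3193.8 and 3019.1, was not above Control. The markers fixed for myeloid cells were Lyz2, Csf1r and Cd14. Lyz2 had 1032.0 and 1301.7 in these libraries, against 687.4 to 1335.5 in Control. Csf1r had 649.9 and 866.0, against 427.7 to 738.9. Cd14, too low to test, had 35.4 and 38.0 there and 105.1 in KO_7.8, against 16.0 to 31.5 in Control. Of the 8 tested genes, only 1, Ccr2, was higher in all 3 cKO libraries, beside 12.6% of all genes. The 11 genes of cDC1, dendritic cells that can carry the CD8 alpha homodimer, summed to 6295 to 7934 in Control and to 7942 to 19040 in cKO, with 1 of 9 tested genes called higher, beside 0.445% of all genes (Zbtb46, log2 fold change 1.003, adjusted p = 0.023). Their defining marker Clec9a had 4.2 to 82.0 normalized counts, and the second one, Xcr1, 127.1 to 170.9 in Control and 225.0 to 355.2 in cKO.

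B cell genes went the other way, with all 8 tested genes negative, a median of −1.106 and sums of 9858 to 13430 in Control and 4497 to 8554 in cKO. Pax5, the factor that holds the B cell fate, had 341.5 ± 55.7 in Control and 137.5 ± 45.1 in cKO (adjusted p = 0.0983). Erythroid genes were high in CTRL_5.6 (4063) and KO_7.8 (3076) and summed to 171.3 to 484.4 in the other libraries. With KO_7.8 left out, the log2 fold changes of Gzmb, Nkg7, Ccl5 and Klrk1 were between 1.04 and 1.15. The part of the other lists in these values was not tested.

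**Figure D5:**
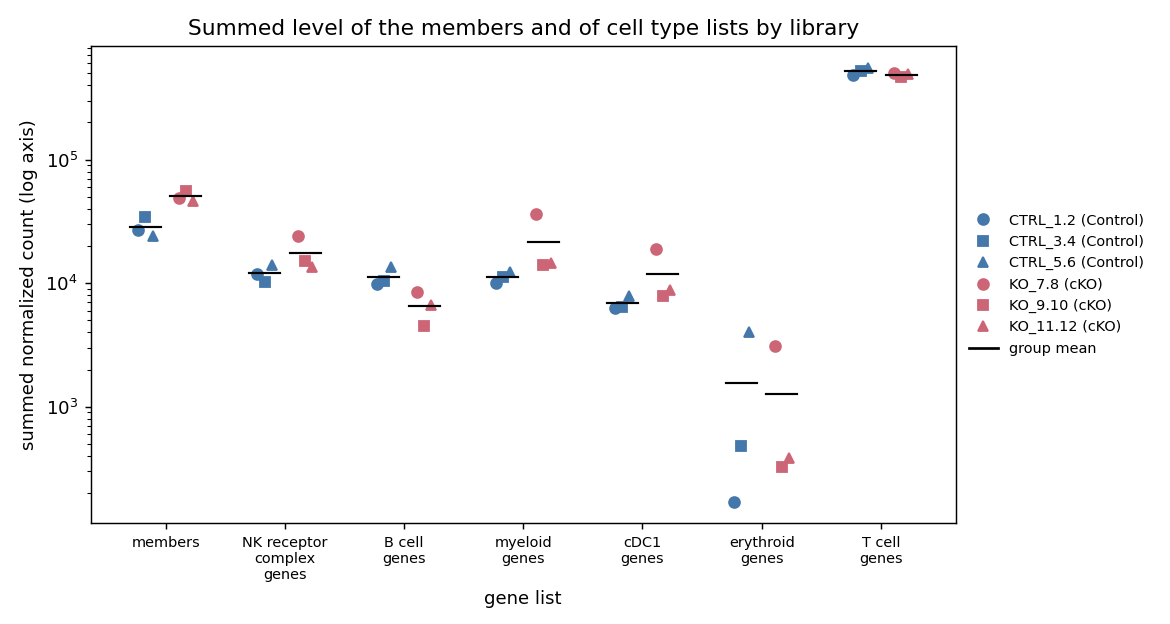
Summed normalized count (log axis) of the 10 genes and of 6 cell type lists in each library, Control in blue and cKO in red, with black lines for group means. The sum of the 10 genes lies higher in all 3 cKO libraries (46410 to 55590, against 23980 to 33980). Ccl5 and Nkg7 make up most of it (24502.3 and 20874.9 in KO_9.10, where the sum is 55590). Prf1, Gzmk, Klrd1, Cd8a and Cd8b1 overlapped between the groups and Crtam was lower. The myeloid and cDC1 sums stand out in KO_7.8 and the B cell sums are lower in cKO.

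Memory and naive T cell genes were set beside the 10 genes because several of them mark memory cells. Of 9 tested memory genes, 8 were positive with a median of 0.437, beside 0.010 for all genes, and 1 was called higher, beside 0.445% of all genes: S100a6, a calcium-binding protein (3907 ± 385 in Control, 9791 ± 1010 in cKO, limma adjusted p = 0.00558). Cxcr3, a homing receptor of type 1 effector and memory cells, had 10190 ± 2040 and 15730 ± 830 (adjusted p = 0.122). Of 8 naive genes, 6 were negative with a median of −0.275, and the 1 called gene, again beside 0.445% of all genes, was higher, Igfbp4 (15680 ± 791 in Control, 33160 ± 5240 in cKO, adjusted p = 0.0218). T cell genes summed to 481800 to 553500 in Control and 462200 to 499700 in cKO, with 0 of 8 passing. Of the 3 gamma-delta and NKT cell genes in the table, only Zbtb16 was tested (825.3 ± 259 and 486.4 ± 179, adjusted p = 0.327).

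The factor removed in cKO acts in splicing, so the splicing events of the 10 genes were examined next. The deposited rMATS tables list 25 events for 9 of the genes and none for Gzmk: 21 skipped exons, 1 alternative 3′ splice site and 3 pairs of mutually exclusive exons, with 0 retained introns and 0 alternative 5′ splice sites. The 3 values per condition carry no library names, so they are given in the order of the table. Of the 22 events that averaged 20 reads or more in each condition, 0 were called at an FDR under 0.01 and a difference of at least 10 points in a quasi-binomial model, where 0.495% of skipped exons, 0.584% of alternative 3′ splice sites and 0.25% of mutually exclusive exons were called. In 20 of the 22 the difference was under 5 points, the largest was 5.96 points, 1 had an unadjusted p under 0.05 and the lowest FDR was 0.388.

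The 3 events with the most reads lay in Ccl5 and Nkg7. The exon of 112 bases of Ccl5 (chr11:83529156-83529267) was included in 100% of transcripts, as rounded, in both conditions, with 53099 reads and only 5 skipping reads, all in cKO. The exon of 147 bases of Nkg7 (chr7:43437537-43437683) was included in 99.9% to 100% in every library, over 37490 reads. The exon of 135 bases of Nkg7 (chr7:43437775-43437909) was included in 93.5%, 94.8% and 93.4% in Control and in 91.7%, 92.6% and 93.2% in cKO over 31099 reads. This was the event with the lowest unadjusted p, and its difference of −1.38 points had an FDR of 0.388. A second event of the same exon, with 13055 reads, went the other way. It gave 99.2% ± 0.139 in Control and 99.7% ± 0.184 in cKO (quasi-binomial model, FDR 0.692). The exon of 147 bases also had a second event, with 99.4% to 99.9% over 21828 reads. Both exons stayed in nearly all transcripts while the read numbers of the genes were higher in cKO.

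Cd8b1 had 4 tested events. Its exon of 90 bases (chr6:71332436-71332525) was included in 95.5% ± 3.12 in Control and 92.7% ± 2.96 in cKO, and the pair of this exon with the next one of 37 bases gave the difference of 5.96 points (60.5% ± 3.34 and 54.5% ± 4.09, FDR 0.789). Cd8a had a single event, an exon of 31 bases with 21 reads in all, too few to test. The 4 tested events of Crtam lay within 5 points between the conditions.

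Klrk1 had the 1 alternative 3′ splice site among these genes. The exon of 54 bases at chr6:129616297-129616350 (minus strand) is coding in GENCODE M21, and a second acceptor site removes its first 18 bases, a multiple of 3. It is printed from the transcript with the long form, with the 18 bases in capitals.
Klrk1 exon, long form: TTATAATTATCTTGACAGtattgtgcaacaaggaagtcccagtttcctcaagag

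The long form had 4, 0 and 0 reads in Control and 7, 11 and 12 in cKO, beside 100, 136 and 72 and 216, 256 and 232 reads of the short form. Corrected for the length of the forms, it made up 3.45%, 0% and 0% in Control and 2.81%, 3.69% and 4.41% in cKO. The highest Control value lay among the cKO values, and the difference of 2.49 points was not called (FDR 0.568). The short form was thus the main one in both conditions. In the skipped exon events, the same skipping reads (3, 1 and 0 in Control, 8, 4 and 7 in cKO) were set against each form in turn. The main form of 36 bases was included in 98.8% ± 1.46 in Control and 97.3% ± 1.11 in cKO (quasi-binomial model, FDR 0.692). The form of 54 bases gave 94.2% ± 5.67 and 88.8% ± 5.43, and this difference of −5.42 points was not called either (FDR 0.844). The latter values are not the share of transcripts with the long form, because most transcripts carry the short form.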

How the data were processed

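According to the methods and processing notes, the authors used cutadapt for trimming and STAR for alignment to GRCm38 (mm10), and counted reads per gene with featureCounts. The deposited expression values are a signal, in which the authors scaled each count by the size factor of its library from DESeq2. 100% of values in each library came out as whole reads within 0.01 reads, and these reads served edgeR 4.0.16 and DESeq2 1.42.0. A gene count cannot separate overlapping genes, and whether strand was used was not examined. The deposited rMATS tables by the authors give inclusion and skipping counts per event, with values per condition without library names. The first of the 2 conditions in them was taken as Control from the study's definition of its difference. Columns with the authors' own comparisons (fold changes, p-values, FDR) were not used.

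Here, limma 3.58.1 (trended variance, R 4.3.3) was run on log2(normalized count + 1) of the 11001 genes that had a symbol and averaged 100 or more in Control or cKO, and p-values were adjusted by Benjamini-Hochberg over all of them. This scale understates changes of low genes. Splicing events were tested by a quasi-binomial model whose dispersion was moderated over events whose rarer form averaged 5 reads or more, with a floor of 1. Ratios used exact permutation tests (scipy 1.17.1). Levels per kilobase used the union of exons in GENCODE M21. Chi-square per gene between libraries of a group was at least 14.9, so none were duplicates. All p-values rest on the spread among libraries. The methods speak of 3 mice per group, but no source explains the digits in the library names, so a library may not be 1 mouse. The genes and lists were chosen with earlier results of these data known. All 10 genes are named with every library value. Of each list, up to 4 genes of smallest p, direct partners and fixed markers are named, except some that are not reported here, and Tyrobp, Fcer1g, Fcgr3, H60b and further values on KO_7.8 were added after their values were seen.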

Additional observations from a re-analysis of the deposited data

How the results depend on the processing

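The number of genes called higher was 0 with limma and 4 with DESeq2 on whole reads (Gzmb, Nkg7, Ccl5 and Klrk1), and so was the number at an adjusted p under 0.05 in either direction; the cause was not tested. Leaving out 1 library at a time gave 0 to 1 for both counts, the 1 being Nkg7 without CTRL_3.4. A pseudocount of 10, no minimum count, a minimum in both conditions, edgeR, TMM rescaling, quantile normalization and robust variances gave 0. The number called lower was 0 throughout. Over all 15 settings, the log2 fold change stayed between 0.87 and 1.34 for Ccl5, 0.87 and 1.28 for Nkg7, 1.15 and 1.56 for Gzmb and −0.67 and −0.46 for Crtam, and it was 0.89 or more for Klrk1. Klrd1 was negative in 4 of the 15 settings and Prf1 was positive in 1. The difference in the Cd8a share ranged from −3.18 to −0.425 points when single libraries were left out and was −0.598 per kilobase, and that of the log2 ratio of Cd8a to Cd4 ranged from −1.67 to −0.00284. The number of splicing events called was 0 under every alternative, among them a minimum of 10 reads, a prior over all events and an FDR under 0.05 with no minimum difference. No paired analysis was possible because the labels give the groups no shared replicate numbers. With 9 to 85 reads per library, Cd8a is limited by depth, and 3 libraries a group leave wide intervals for Klrd1, Gzmk and Cd8b1.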
